A study of Mus musculus with 12 samples.

Results

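The genes described here are the 10 genes of MHC class I antigen processing H2-K1, H2-D1, B2m, Tap1, Tap2, Tapbp, Psmb8, Psmb9, Psmb10 and Nlrc5. They were chosen by symbol, with earlier results of these data known. They belong to the 55335 genes quantified in 12 RNA-seq libraries of mouse bone marrow-derived dendritic cells (BMDCs). The libraries form 4 groups of 3 biological replicates, all from C57BL/6 bone marrow cultured for 6 days with GM-CSF. WT BMDCs came from CreER mice and CTCF-deficient BMDCs (KO) from CreER;CTCF fl/fl mice, in which 4-OH tamoxifen on the first culture day activates the Cre that removes the loxP-flanked Ctcf alleles. WTL and KOL are such WT and KO cultures after 3 h of LPS, a bacterial cell wall component, at 100 ng/ml. All 4 groups carry the CreER transgene, which the broadly active Rosa26 locus drives and which is therefore not limited to dendritic cells. After culture, CD11c-expressing cells were enriched with magnetic beads as BMDCs. The study writes that the drug was given to delete Ctcf in the KO genotype and not in WT, which can be read as WT cultures without the drug or as WT cultures whose alleles it could not delete. If WT cultures did not receive it, CTCF depletion and the drug cannot be told apart. Deletion was induced at the start of differentiation, so that CTCF depletion before and after the cells became BMDCs cannot be told apart either.

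MHC class I molecules show fragments of intracellular proteins to CD8 T cells. In dendritic cells, which prime these T cells, the pathway is known to be raised by microbial signals and interferon. Proteins are first cut by the proteasome, whose catalytic subunits can be replaced by the immunoproteasome subunits encoded by Psmb8, Psmb9 and Psmb10. The TAP transporter, a dimer of the Tap1 and Tap2 products, then carries peptides into the endoplasmic reticulum. There tapasin, encoded by Tapbp, helps to load them onto a class I heavy chain, such as the H2-K1 and H2-D1 products, paired with the light chain β2-microglobulin, encoded by B2m. NLRC5 is the transactivator that drives transcription of most of these genes through an enhanceosome at their promoters.

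Of the 10 genes, 7 lie on chromosome 17 in or near the mouse MHC (mm10, GENCODE M21). These are Tapbp (17:33915899-33929292, + strand), H2-K1 (17:33996017-34000347, − strand), Psmb9 (17:34181987-34187764, − strand), Tap1 (17:34187553-34197225, + strand), Psmb8 (17:34197721-34201454, + strand), Tap2 (17:34203527-34216321, + strand) and H2-D1 (17:35262730-35267499, + strand). B2m lies at 2:122147686-122153083 on the + strand. Nlrc5 (8:94434356-94527272, + strand) and Psmb10 (8:105935735-105938444, − strand) lie on chromosome 8. Tap1 and Psmb9 are transcribed away from each other, and their annotated 5′ ends overlap on opposite strands. Annotated genes also overlap B2m (Patl2), Tap2 (Gm15821 and Gm20496), Tapbp (Zbtb22 and Gm19412), Psmb8 (Gm20496), Psmb10 (Gm16156) and Nlrc5 (9330175E14Rik and Mir7072). Whether strand was used in counting is not given in the sources used here, so reads of such pairs may not be told apart. The class I heavy chain genes are near-identical in long stretches, and values of H2-K1 and H2-D1 depend on how reads were divided among them.

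Upstream sequences are shown for H2-K1, H2-D1 and B2m, the chains of the class I molecule, because they encode the molecule that the pathway brings to the cell surface. They come from RefSeq on GRCm38.p6, which held a promoter entry for 8 of the 10 genes and none for Tap2 and Nlrc5. Capitals mark 4 motifs searched on both strands. These are the NF-κB consensus, AANNGAAA, the core bound by interferon regulatory factors, TGACG, a CRE-like core found in the X2 box of MHC promoters, and CCAAT, the box bound by NF-Y, which reads ATTGG on the other strand. The H2-K1 sequence holds the 250 bases before its first start site (chr17:34000348-34000597, − strand). The B2m sequence holds 249 bases (chr2:122147437-122147685, + strand). For H2-D1, whose RefSeq upstream window lies inside an exon of a longer GENCODE transcript, 30 bases are shown (chr17:35262922-35262951, + strand) beside the matching 30 bases of H2-K1 (chr17:34000430-34000459, − strand).
H2-K1: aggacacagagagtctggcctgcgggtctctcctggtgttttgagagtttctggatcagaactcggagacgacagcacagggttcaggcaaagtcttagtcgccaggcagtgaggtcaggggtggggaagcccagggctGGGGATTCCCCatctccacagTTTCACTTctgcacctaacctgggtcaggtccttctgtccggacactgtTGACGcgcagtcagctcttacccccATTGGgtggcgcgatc
B2m: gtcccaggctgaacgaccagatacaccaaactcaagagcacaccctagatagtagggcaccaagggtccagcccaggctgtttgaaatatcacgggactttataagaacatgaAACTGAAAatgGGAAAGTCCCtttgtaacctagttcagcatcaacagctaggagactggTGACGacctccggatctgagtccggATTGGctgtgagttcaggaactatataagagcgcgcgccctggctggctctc
H2-K1 element: tGGGGATTCCCCatctccacagTTTCACTT
H2-D1 element: tGGGGATTCCCCatctcctcagTTTCACTT

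The H2-K1 and H2-D1 elements were identical at 29 of 30 bases. In all 3 genes the 250 bases before the start site held all 4 of these motifs. In H2-K1, 2 overlapping NF-κB matches, each found on both strands, spanned 111 to 101 bases upstream of the start site. The AANNGAAA core began 90, TGACG 41 and CCAAT 16 bases upstream. In B2m the order of the first pair was the reverse, with AANNGAAA at 137 and the NF-κB match at 126 bases upstream. Over all 32851 promoter entries, 7.25% held an NF-κB match, 21.3% AANNGAAA, 17.8% TGACG and 33.8% CCAAT in their upstream 250 bases. Of the other 5 members with an entry, Tap1 and Psmb9 held CCAAT and TGACG, Tapbp held CCAAT, Psmb8 held only TTCNNNGAA, a palindrome known from interferon-responsive promoters (7.02% of all entries), and Psmb10 held none of the 5 motifs searched. These matches are letters in a window and were not tested for binding. The motifs were chosen with the promoter sequences in view, so the shares over all entries are a description and not a test of enrichment.

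Total expected counts per library were between 12769773 and 16586334. Ctcf itself was lower in every CTCF-deficient library, with 516 to 570 normalized counts in KO against 975 to 1051 in WT and 526 to 564 in KOL against 745 to 886 in WTL. It fell by 0.87 on the log2 scale without LPS and by 0.59 with LPS (adjusted p = 3.9e-07 and 2.4e-05). Summed TPM of 9 dendritic cell markers ranged from 7536 to 8051 in WT, 6087 to 6361 in KO, 7805 to 10934 in WTL and 8714 to 13170 in KOL. Most of this sum came from the class II genes Cd74 (5132 TPM in WT and 4252 in KO) and H2-Ab1 (1743 and 923). Of the 9 markers, 1 was higher and 5 lower in KO against WT, and 3 were higher and 3 lower in KOL against WTL. Itgax, which encodes CD11c, stood at 366 TPM in WT and 606 in KO. Mean TPM of Ccr7 (319 and 195) and Dcstamp (255 and 190) was lower in KO. Summed TPM of 8 neutrophil markers was 375 to 399 in WT and 193 to 225 in KO, and 6 of the 6 tested fell in KO. With LPS the neutrophil sum was 348 to 443 in WTL and 288 to 332 in KOL, and 5 of the 6 fell in KOL against WTL. Summed TPM of 7 macrophage markers was 945 to 1188 over all libraries, but its members moved apart, with 2 higher and 4 lower in KO against WT (Csf1r from 351 to 511 TPM and Cd14 from 195 to 115). Each of 4 B cell markers and of 4 mast cell and basophil markers was below 1 TPM in every library. The part of these shifts in the results was not tested, and in bulk RNA fewer cells of a type and less RNA per cell cannot be told apart. Among LPS libraries WTL replicate 1 and KOL replicate 2 had the highest mitochondrial share of their group, 3.18% and 3.99%. In both libraries the 8 members other than B2m and Nlrc5 were at their lowest of the group, and Nlrc5 was at its highest. Ribosomal RNA genes took 5.17% of counts in WTL replicate 2 and at most 1.19% elsewhere.

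Transcript levels differed over a wide range between the members. On the TPM scale, which divides by transcript length and library total and so allows levels of different genes to be compared, B2m stood highest in WT BMDCs at 3546 ± 58.6 (SD, n = 3), rank 34 among all genes. H2-K1 followed at 1286 ± 34.4 and H2-D1 at 666.8 ± 32.5. Psmb8 (285.9 ± 10.2), Tapbp (164.0 ± 4.29), Psmb10 (115.1 ± 9.56) and Psmb9 (97.9 ± 3.85) formed the middle of the order. Tap1 stood at 61.7 ± 2.99, Nlrc5 at 54.5 ± 3.34 and Tap2 at 53.6 ± 2.06 TPM, with Nlrc5 and Tap2 overlapping between libraries.

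The order of the upper 3 genes was kept in all groups, and that of the lower genes was not. In WTL, Tapbp (449.8 ± 45.1) and Psmb8 (415.5 ± 47.9) overlapped. Tap1, Psmb9, Nlrc5 and Psmb10 then lay together between 183 and 263 TPM, and Tap2 stood last at 134.0 ± 12. In KO, Psmb9 and Psmb10 overlapped near 100 TPM, Tap2 (76.8 ± 1.83) overlapped Tap1 (70.8 ± 4.97), and Nlrc5 stood last at 44.8 ± 3.08. In KOL the mean levels of Psmb10, Psmb9, Tap1, Tap2 and Nlrc5 ran from 224.5 ± 22.6 down to 162.6 ± 9.44, with overlap between each neighbouring pair. By rank among all genes, Nlrc5 moved from 2200 in WT to 625 in WTL and Tap1 from 1942 to 599.

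**Figure D1:**
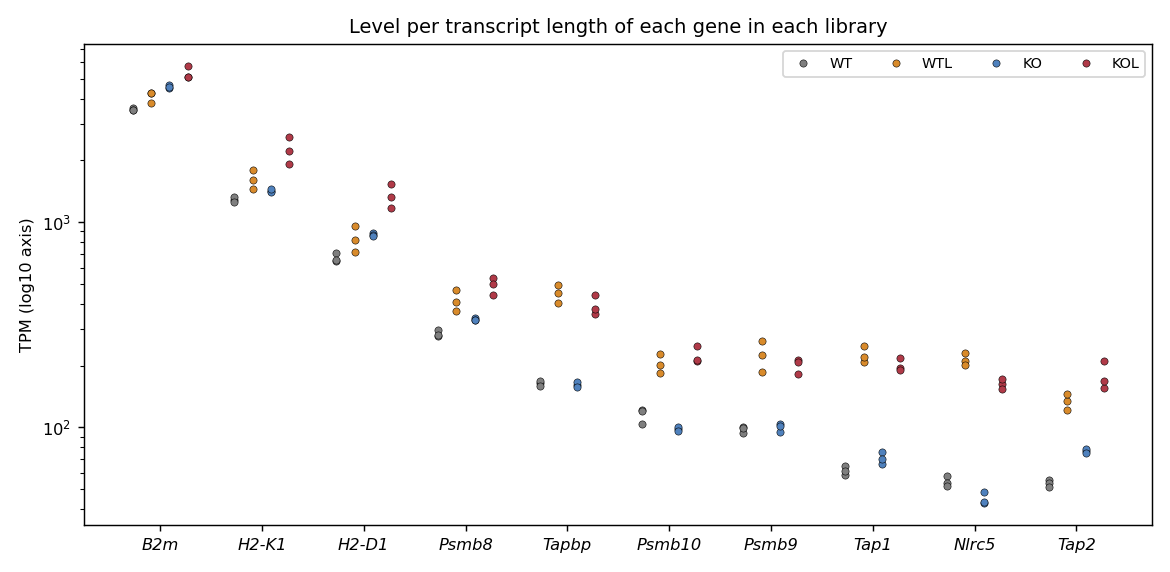
TPM (log10 axis) of each of the 10 genes in each of the 12 libraries, ordered by the WT mean, with 1 point per library and colours for WT, WTL, KO and KOL. B2m lies at 3506 TPM or more in all libraries, and Tap1, Nlrc5 and Tap2 lie at 78.6 TPM or less in all WT and KO libraries and at 122.0 TPM or more in all WTL and KOL libraries.

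LPS raised all 10 genes in WT BMDCs. Changes of a gene between groups are given on normalized counts, which are expected counts scaled for library size by edgeR, with the edgeR quasi-likelihood test and p-values adjusted over the 14008 genes tested. In WTL against WT, 10 members were higher and 0 lower at an adjusted p under 0.05, where 30.0% of all tested genes were called higher and 30.2% lower. Upper-quartile scaling turned this split into 24.3% and 37.6%, and limma on log2(TPM + 1) into 12.7% and 56.2%, with all 10 members higher under both. Their median log2 fold change was 1.55, against −0.02 over all tested genes. In CTCF-deficient BMDCs LPS likewise raised all 10, where 33.6% of all tested genes were called higher and 33.9% lower in KOL against KO (16.7% and 51.6% with limma on log2(TPM + 1)). The median there was 1.56 against −0.02 over all tested genes. No LPS library of either genotype overlapped the unstimulated libraries for any member, which held for 65.1% of all tested genes in WT and 71.2% in CTCF-deficient BMDCs.

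The response was uneven across the pathway. Nlrc5 and Tap1 rose most in WT BMDCs, with log2 fold changes of 2.54 and 2.38, and the chains of the class I molecule rose least, between 0.73 and 0.86. Tapbp (1.97), Tap2 (1.84), Psmb9 (1.74), Psmb10 (1.36) and Psmb8 (1.18) lay between them. In CTCF-deficient BMDCs the same 3 chains were again the least raised, between 0.67 and 1.13, and Nlrc5 (2.15) and Tap1 (2.03) the most.

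CTCF depletion without LPS moved some members and not others. In KO against WT, 6 members were higher and 0 lower, where 22.2% of all tested genes were called higher and 22.4% lower (13.4% and 23.5% with limma on log2(TPM + 1)). The median log2 fold change of the members was 0.25, against −0.01 over all tested genes. Groups did not overlap for 7 members, against 64.2% of all tested genes. The 6 called were H2-K1, H2-D1, B2m, Tap1, Tap2 and Psmb8, and all were changes of less than 1.4-fold. With LPS, in KOL against WTL, 5 members were higher and 1 lower, where 21.4% of all tested genes were called higher and 23.3% lower. The median was 0.22, against −0.04 over all tested genes. Groups did not overlap for 5 members, against 46.3% of all tested genes. Of the 5 higher members, all were also higher without LPS, and the lower member was Nlrc5. These 4 comparisons share their groups in pairs and are not independent of each other.

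**Figure D2:**
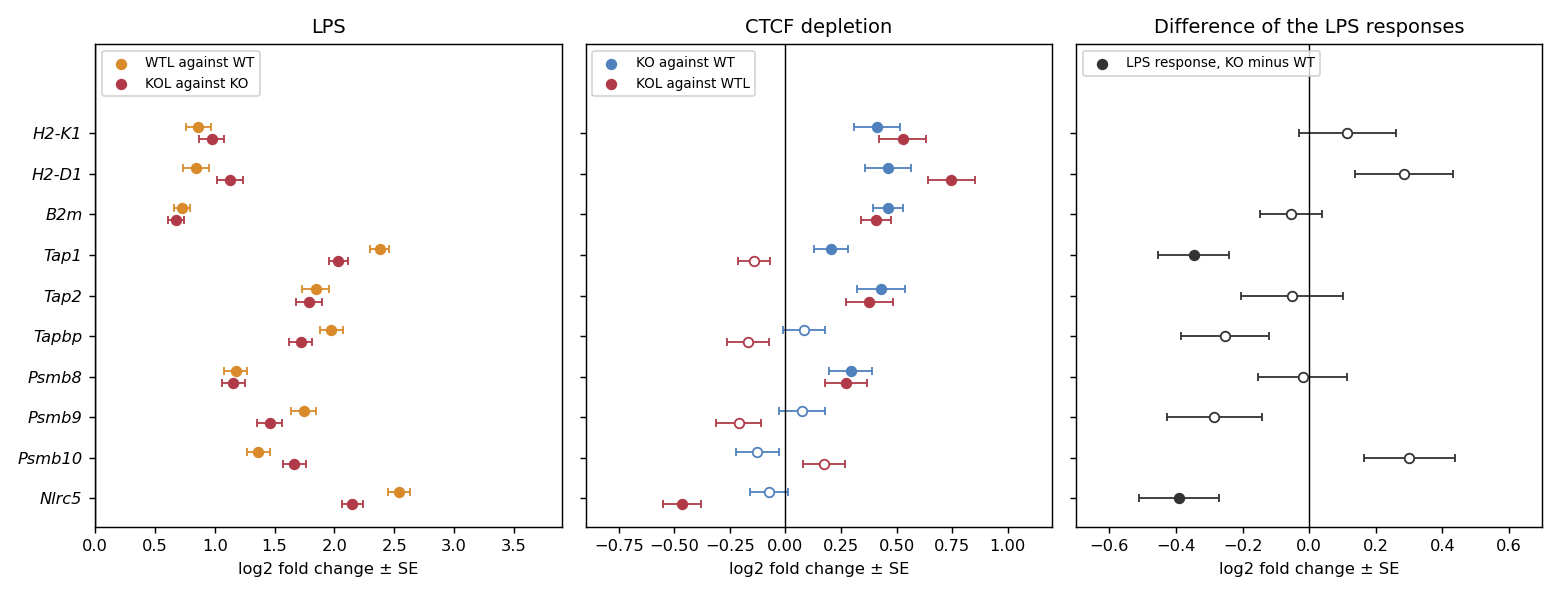
log2 fold changes of the 10 genes with their standard errors (horizontal axes), for LPS in each genotype (left), CTCF depletion without and with LPS (middle), and the difference of the 2 LPS responses (right). Filled points passed an adjusted p of 0.05 in the edgeR test and open points did not. All 20 LPS effects are filled and to the right of 0, and H2-K1, H2-D1, B2m, Tap2 and Psmb8 are filled to the right of 0 in both depletion comparisons.

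H2-K1, which encodes the classical heavy chain H-2K, was measured at 10375, 11243 and 10469 normalized counts in WT and at 14363, 13964 and 14406 in KO. With LPS it reached 16432, 20359 and 21548 in WTL and 31300, 24274 and 28510 in KOL. The KO libraries all lay above WT, and the KOL libraries all lay above WTL, so that no group overlapped the one it was compared with. On the log2 scale H2-K1 rose with CTCF depletion by 0.41 ± 0.10 without LPS (SE, adjusted p = 0.0049) and by 0.53 ± 0.10 with LPS (adjusted p = 0.00083). LPS raised it 1.82-fold in WT and 1.97-fold in CTCF-deficient BMDCs. The length that the quantification assigned to H2-K1 transcripts also differed, at 786 to 810 bases in WT and 882 to 899 in KO, which enters TPM and not counts. On the TPM scale the KO against WT difference of H2-K1 was 0.15 and did not pass the limma test (adjusted p = 0.31), nor did it pass after centring on the median gene (0.28, adjusted p = 0.064), while the difference with LPS passed in every alternative fit.

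H2-D1, the gene of the second classical heavy chain H-2D, read 11152, 12520 and 11745 normalized counts in WT and 16530, 16097 and 16149 in KO. Its LPS-stimulated counts were 17766, 22208 and 23562 for WTL against 39585, 31206 and 35763 for KOL. KO libraries again stood apart from WT, and every KOL library exceeded every WTL library. The rise with CTCF depletion was 0.46 ± 0.10 without LPS (adjusted p = 0.0024) and 0.75 ± 0.11 with LPS (adjusted p = 4.6e-05), the latter a 1.68-fold change and the largest depletion effect among the members. LPS raised H2-D1 1.79-fold in WT and 2.18-fold in CTCF-deficient BMDCs, and the difference between these responses (0.28 ± 0.15, adjusted p = 0.21) did not pass the test.

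B2m, the gene of the invariant light chain, gave 23019, 23233 and 23949 normalized counts in WT and 32858, 31580 and 32360 in KO. Its counts were 38940, 38284 and 39163 in WTL and 47937, 56041 and 50468 in KOL. As for the heavy chains, no KO or KOL library overlapped its WT or WTL counterpart. B2m rose 1.38-fold with CTCF depletion (log2 0.46 ± 0.07, adjusted p = 5.8e-05) and 1.33-fold in LPS-stimulated cells (log2 0.41 ± 0.07, adjusted p = 0.00019). These calls and those of H2-D1 in both depletion comparisons passed under every alternative fit. The responses of B2m to LPS were 1.66-fold in WT and 1.60-fold in CTCF-deficient BMDCs.

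The balance of the chains was read within each library. The ratio of H2-K1 to H2-D1 TPM was 1.93 ± 0.06 in WT, 1.96 ± 0.06 in WTL, 1.65 ± 0.05 in KO and 1.67 ± 0.04 in KOL (SD, n = 3), so that CTCF-deficient libraries with or without LPS lay below all others. This ratio includes the assigned transcript lengths given for H2-K1, and the separation holds for TPM only. On normalized counts, which these lengths do not enter, H2-K1 and H2-D1 rose by similar amounts in KO against WT (0.41 and 0.46). In KOL against WTL they rose by 0.53 and 0.75. The TPM of B2m was 1.82 ± 0.07 times the sum of both heavy chains in WT, 2.00 ± 0.02 in KO, 1.69 ± 0.24 in WTL and 1.51 ± 0.32 in KOL, and the LPS groups overlapped. No test was run on these ratios.

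**Figure D3:**
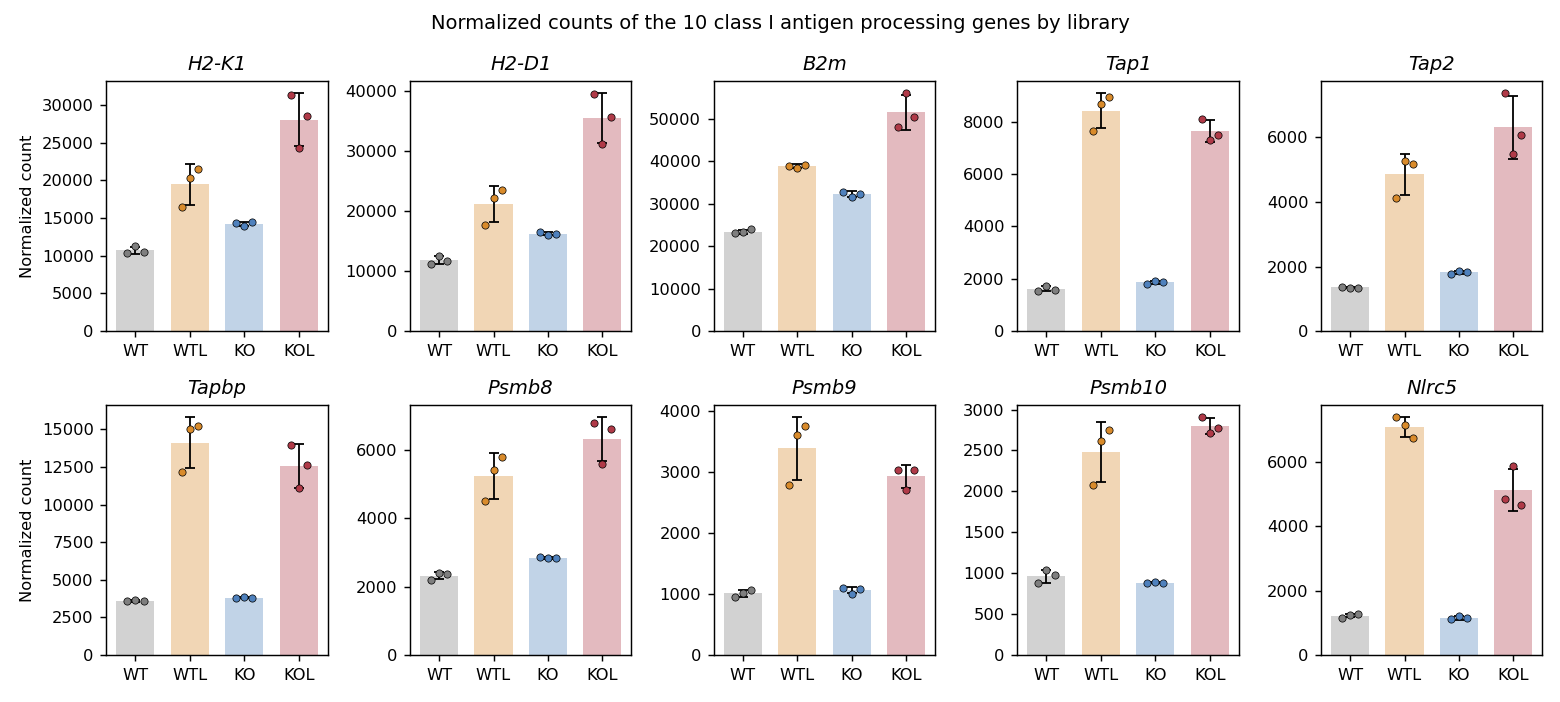
Normalized counts of each gene by library (points), with the group mean (bars from 0) and SD (error bars, n = 3) for WT, WTL, KO and KOL. H2-K1, H2-D1 and B2m are higher in KO than in WT and highest in KOL, and Nlrc5 is lower in all 3 KOL libraries than in all 3 WTL libraries.

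Among the transporter genes, Tap1 counted 1546, 1720 and 1583 in WT, 1812, 1914 and 1864 in KO, 7650, 8668 and 8935 in WTL, and 8098, 7309 and 7484 in KOL. LPS raised it 5.21-fold in WT and 4.10-fold in CTCF-deficient BMDCs. The KO libraries lay above the WT libraries by a small margin (log2 0.20 ± 0.08, adjusted p = 0.040), a call that was lost when any 1 of the 6 libraries was left out, with adjusted p up to 0.24. With LPS the groups overlapped, and the difference of −0.14 ± 0.07 did not pass (adjusted p = 0.14). The LPS response of Tap1 was smaller in CTCF-deficient than in WT BMDCs by 0.35 ± 0.11 on the log2 scale (adjusted p = 0.037).

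Tap2, the partner of Tap1, counted 1370, 1339 and 1347 in WT and 1769, 1854 and 1841 in KO, followed by 4108, 5256 and 5174 in WTL and 7364, 5478 and 6056 in KOL. Neither pair of groups overlapped. CTCF depletion raised Tap2 by 0.43 ± 0.11 without LPS (adjusted p = 0.0052) and by 0.38 ± 0.11 with LPS (adjusted p = 0.010). The call with LPS was lost without KOL replicate 1, the highest KOL library (log2 0.25, adjusted p = 0.059), and the call without LPS passed under every alternative fit. LPS raised it 3.59-fold in WT and 3.46-fold in CTCF-deficient BMDCs.

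Tapbp, which encodes tapasin, read 3569, 3661 and 3561 normalized counts in WT and 3778, 3846 and 3817 in KO, 12141, 15029 and 15212 in WTL, and 13963, 11102 and 12640 in KOL. The KO libraries lay just above WT, but the difference of 0.08 ± 0.09 did not pass (adjusted p = 0.50). LPS-stimulated groups overlapped, with a difference of −0.17 ± 0.09 (adjusted p = 0.16). LPS raised Tapbp 3.93-fold in WT and 3.30-fold in CTCF-deficient BMDCs.

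Of the immunoproteasome genes, Psmb8 alone was called in the depletion comparisons of the edgeR fit of all 12 libraries. Psmb8, the gene of the β5i subunit, counted 2196, 2407 and 2361 in WT, 2881, 2825 and 2825 in KO, 4511, 5407 and 5806 in WTL and 6782, 5596 and 6623 in KOL. It rose with CTCF depletion by 0.29 ± 0.10 without LPS (adjusted p = 0.022) and by 0.27 ± 0.09 with LPS (adjusted p = 0.029), although WTL and KOL overlapped. The first call was lost when any 1 of its 6 libraries was left out (adjusted p up to 0.14) and the other without WTL replicate 1 or 2 or KOL replicate 1 or 3 (adjusted p up to 0.11). LPS raised Psmb8 2.26-fold in WT and 2.23-fold in CTCF-deficient BMDCs.

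Psmb9, which encodes β1i from the start region it shares with Tap1, counted 953, 1024 and 1060 in WT and 1104, 1006 and 1087 in KO, and 2794, 3608 and 3764 in WTL and 3042, 2706 and 3038 in KOL. Both pairs of groups overlapped and neither depletion comparison passed (0.07 ± 0.10, adjusted p = 0.59 without LPS and −0.21 ± 0.10, adjusted p = 0.10 with LPS). The LPS response was 3.35-fold in WT and 2.75-fold in CTCF-deficient BMDCs. Psmb10, the gene of β2i on chromosome 8, counted 876, 1033 and 982 in WT and 882, 889 and 878 in KO, and 2072, 2619 and 2754 in WTL and 2914, 2720 and 2772 in KOL. It too overlapped in both pairs, at −0.13 ± 0.10 without LPS (adjusted p = 0.32) and 0.17 ± 0.10 with LPS (adjusted p = 0.16). LPS raised Psmb10 2.58-fold in WT and 3.17-fold in CTCF-deficient BMDCs.

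WTL replicate 1 was the lowest WTL library for Tap1, Tapbp and Psmb9, and without it all 3 were lower in KOL than in WTL. The log2 differences were then −0.21 for Tap1 (adjusted p = 0.026), −0.27 for Tapbp (adjusted p = 0.015) and −0.33 for Psmb9 (adjusted p = 0.0029). In that setting 4 members, with Nlrc5, were called lower. The LPS responses of Tapbp (−0.35, adjusted p = 0.038) and Psmb9 (−0.41, adjusted p = 0.016) were then also smaller in CTCF-deficient BMDCs.

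Each immunoproteasome subunit takes the place of a constitutive one, which allows the balance of the pair to be read within a library. The TPM ratio of Psmb8 to Psmb5 was 1.3 ± 0.04 in WT, 1.71 ± 0.08 in KO, 2.44 ± 0.03 in WTL and 2.53 ± 0.05 in KOL (SD, n = 3). The ratio of Psmb10 to Psmb7 moved from 0.884 ± 0.095 in WT to 1.54 ± 0.24 in WTL and from 0.899 ± 0.028 in KO to 1.74 ± 0.18 in KOL. Both ratios were higher in every LPS library than in every unstimulated library.

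The pair of Psmb9 and Psmb6 was different. Its TPM ratio went from 0.334 ± 0.008 in WT to 0.562 ± 0.068 in WTL, but from 0.260 ± 0.008 in KO only to 0.264 ± 0.016 in KOL. Psmb9 itself rose with LPS in both genotypes. Psmb6, the constitutive β1 subunit, counted 1576, 1832 and 1778 in WT and 2501, 2347 and 2413 in KO, and 3099, 3569 and 3461 in WTL and 6438, 6413 and 6796 in KOL. It rose with CTCF depletion by 0.49 ± 0.08 (adjusted p = 0.00012) and by 0.95 ± 0.08 with LPS (adjusted p = 1.5e-07), and its LPS response was larger in CTCF-deficient BMDCs by 0.47 ± 0.11 (adjusted p = 0.0079). No overlap remained between any compared groups of Psmb6. Psmb5 and Psmb7, the constitutive β5 and β2 subunits, did not pass in either depletion comparison, with log2 differences of −0.06 and −0.16 without LPS and 0.22 and −0.02 with LPS.

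**Figure D4:**
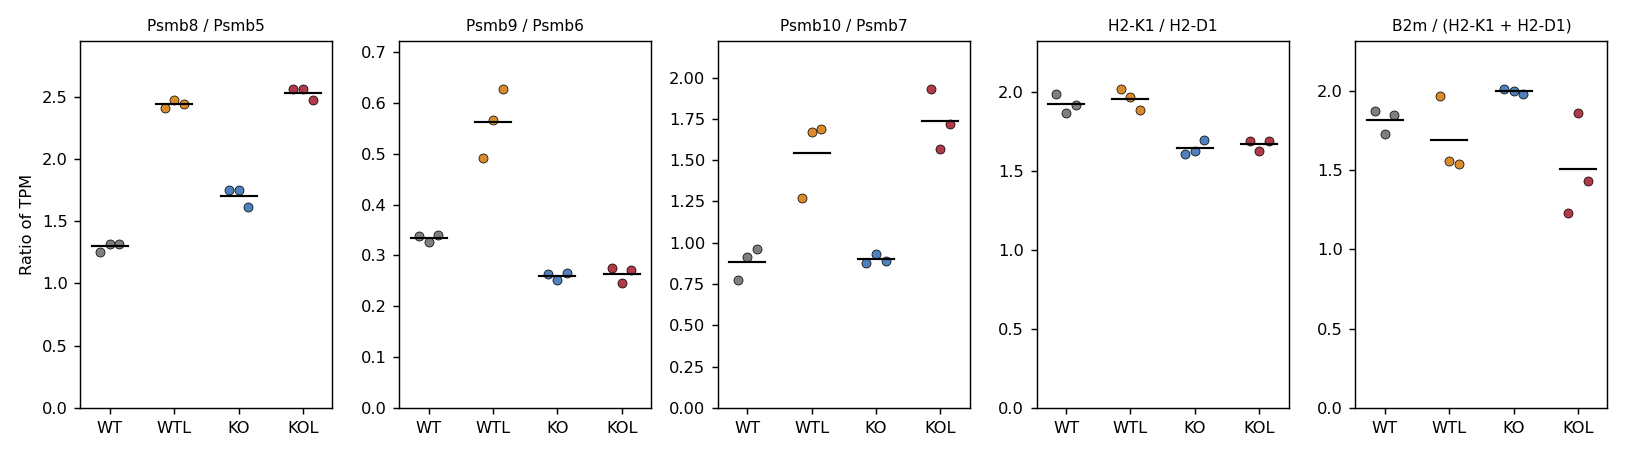
Ratios of TPM within each library (points, with the group mean as a line, n = 3) for immunoproteasome subunits against the constitutive subunits they replace, H2-K1 against H2-D1, and B2m against the sum of both heavy chains. Psmb9 to Psmb6 lies between 0.245 and 0.275 in the KO and KOL libraries and at 0.491 or more in the WTL libraries.

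Nlrc5, the transactivator of the pathway, was the only member lower in CTCF-deficient BMDCs in the edgeR fit of all 12 libraries. It counted 1161, 1231 and 1261 in WT and 1105, 1219 and 1143 in KO, groups that overlapped (−0.08 ± 0.09, adjusted p = 0.52). With LPS it counted 7384, 7140 and 6759 in WTL and 4861, 5874 and 4672 in KOL. The KOL libraries all lay below the WTL libraries, and the mean fell from 7094 ± 315 to 5135 ± 646 (log2 −0.47 ± 0.09, adjusted p = 0.00045). This difference passed under every alternative fit, between −0.57 and −0.33, and was −0.44 without WTL replicate 1 and −0.57 without KOL replicate 2. In unstimulated cells Nlrc5 was called lower with limma on log2(TPM + 1) (−0.28, adjusted p = 0.018) and not after centring on the median gene. On that scale its assigned transcript length, 1943 to 2303 bases in WT and 2276 to 2356 in KO, also enters.

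LPS raised Nlrc5 5.82-fold in WT and 4.44-fold in CTCF-deficient BMDCs. The difference of the responses, −0.39 ± 0.12 on the log2 scale, passed the test (adjusted p = 0.040). With Tap1 this made 2 members with a smaller response and 0 with a larger one, where 8.70% of all tested genes had a larger and 8.75% a smaller response in CTCF-deficient BMDCs. The median of the 10 differences was −0.05, against −0.02 over all tested genes. The Nlrc5 call held without WTL replicate 3 or KOL replicate 2 and was lost without any other library (adjusted p up to 0.18), and that of Tap1 held without WTL replicate 1, KOL replicate 1 or KOL replicate 2 and was lost without any other (adjusted p up to 0.19). The remaining 8 members did not pass, with differences from −0.29 (Psmb9) to 0.30 (Psmb10).

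The pattern of each gene over the 12 libraries can be set beside that of Nlrc5 as a correlation of log2 normalized counts, which describes these libraries and follows the LPS response that nearly all of them share. Pearson's r with Nlrc5 was 0.986 for Tap1, 0.982 for Tapbp, 0.980 for Psmb9, 0.960 for Psmb10, 0.926 for Tap2 and 0.910 for Psmb8. For the chains of the class I molecule it was 0.787 for H2-K1, 0.781 for B2m and 0.738 for H2-D1. Among 9328 genes with a mean of at least 100 normalized counts, the non-members with the pattern most like Nlrc5 were Pakap, Itga5, Znfx1, Trim26 and Mafk (r from 0.998 to 0.999). Those most like the mean of the members were Gm16712, Rhof, A630072M18Rik, Arf4 and Tmem106a (r from 0.994 to 0.997).

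Regulators known to act on class I genes moved either way. Of 22 such genes tested, 2 were higher and 7 lower in KO against WT, and 3 were higher and 10 lower in KOL against WTL, where 22.2% and 22.4% and then 21.4% and 23.3% of all tested genes were called higher and lower. The counts of the lists that follow are to be read against the same shares. Counts with LPS, here and in those lists, are to be read against 30.0% higher and 30.2% lower in WT. In CTCF-deficient BMDCs these shares were 33.6% and 33.9%. Irf1, a factor induced by interferon that binds class I promoters, fell by 1.32 ± 0.08 without LPS (adjusted p = 1.1e-08), from 1534 to 1771 normalized counts in WT to 633 to 689 in KO. With LPS it fell by 0.92 ± 0.08 (adjusted p = 3.2e-07). Stat2, which carries type I interferon signals to the nucleus, fell by 1.11 without LPS and by 0.35 with LPS. Irf8 (−1.09), Ciita, the class II transactivator (−0.81), and Rfx5, which anchors the enhanceosome (−0.55), fell in KOL against WTL. In KO against WT they stood at −0.15, −0.29 and −0.04, none past the test. The LPS response was smaller in CTCF-deficient BMDCs for Irf8 (−0.94, adjusted p = 0.00075) and Rfx5 (−0.51, adjusted p = 0.0041), and the difference for Ciita (−0.52) did not pass (adjusted p = 0.077). The difference was positive for Irf9, which joins Stat2 in the interferon-induced complex (0.84, adjusted p = 3.5e-05), Stat2 (0.76), Eed (0.62) and Irf1 (0.40). Of the 22 regulators, 5 differed in the positive and 4 in the negative direction. Eed, a Polycomb subunit, rose by 0.61 in KO and by 1.23 in KOL against WTL. LPS raised 14 and lowered 2 of the 22 in WT, and raised 16 and lowered 2 in CTCF-deficient BMDCs, Stat2 (2.35 and 3.11) and Irf1 (2.16 and 2.56) most.

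Of 8 tested genes for interferons, their receptors and kinases, 2 were higher and 2 lower in KO against WT and 1 higher and 1 lower in KOL against WTL. Ifnb1, which encodes interferon β, was at 1.84 to 4.32 normalized counts in WT and 0 in all KO libraries, and at 136 to 162 in WTL and 91.3 to 145 in KOL, groups that overlapped. No fold is given for counts this low. Ifnar1 rose by 0.65 and Jak2 fell by 0.50 in KO, and Ifnar2 fell by 0.63 in KOL against WTL. Ifngr1, a chain of the interferon γ receptor, was lowered by LPS in WT (−1.46) and in CTCF-deficient BMDCs (−0.94), and was higher in KOL than in WTL by 0.38 (adjusted p = 0.0020). LPS raised Jak2 by 1.23 in WT and 1.74 in CTCF-deficient BMDCs. The LPS response was smaller in CTCF-deficient BMDCs for Ifnar1 (−0.84, adjusted p = 0.0039) and Ifnar2 (−0.53, adjusted p = 0.0086) and differed in the positive direction for Ifngr1 (0.52, adjusted p = 0.0071) and Jak2 (0.52, adjusted p = 0.041).

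Other class I genes went in both directions. Of 13 tested, 3 were higher and 2 lower in KO against WT, close to the 22.2% and 22.4% of all tested genes, and 4 were higher and 3 lower in KOL against WTL. H2-T23, which encodes Qa-1, a nonclassical molecule that presents signal peptides to NK cell receptors, counted 2429, 2503 and 2443 in WT and 546, 524 and 576 in KO. It was 4.48-fold lower in KO (log2 −2.16 ± 0.10, adjusted p = 4.6e-10) and 2.69-fold lower in KOL than in WTL (log2 −1.43 ± 0.09, adjusted p = 2.3e-08). H2-T10, a nonclassical gene of the same region, went the other way, with a rise of 1.14 in KO and 1.3 in KOL against WTL. Near-identical copies make the values of H2-T10 and H2-T22 uncertain. LPS raised 11 of the 13 and lowered 1 in WT, with H2-T22 (2.23) and H2-T10 (1.90) most raised, and raised 10 and lowered 2 in CTCF-deficient BMDCs. There H2-T22 (2.56) and H2-T23 (2.12) were the most raised. The LPS responses of the genotypes differed by −0.83 for Cd1d1, which presents lipids (adjusted p = 0.00040), and by 0.73 for H2-T23 (adjusted p = 0.0018).

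A further list holds genes that help to load and trim peptides. Of 13 tested, 6 were higher and 1 lower in KO against WT, and 4 were higher and 3 lower in KOL against WTL. Tapbpl, which encodes the tapasin-related editor TAPBPR, fell by 0.54 in KO and by 0.24 in KOL against WTL, and was raised by LPS in both genotypes (1.83 and 2.13). Lap3, a leucine aminopeptidase, rose with LPS by 2.03 in WT and 1.59 in CTCF-deficient BMDCs, and fell by 0.60 in KOL against WTL. Thop1, a peptidase of the cytosol, rose by 0.55 in KO and 0.37 in KOL against WTL. With LPS, 5 of the 13 rose and 1 fell in WT, and 3 rose and 4 fell in CTCF-deficient BMDCs. The difference of the LPS responses was −0.47 for Uggt1, a sensor of glycoprotein folding (adjusted p = 0.036), and −0.44 for Lap3 (adjusted p = 0.016).

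On normalized counts 12 of 14 genes of the constitutive proteasome core rose with LPS in WT and 13 of 14 in CTCF-deficient BMDCs, with none lower. Psma6 (1.41 and 1.5) and Psmb6 (0.97 and 1.44) rose most. Over all tested genes 30.0% and 33.6% were called higher. The direction depended on the scale, since mean TPM was lower with LPS for 6 of the 14 in WT and 4 in CTCF-deficient BMDCs. CTCF depletion moved 2 up and 2 down without LPS, among them Psma2 (−0.25), and 1 up, Psmb6, with LPS. Among 9 activator and assembly genes, Psme1 and Psme2, the subunits of the interferon-induced PA28 cap, fell in KO by 0.31 and 0.44, and no gene of this list rose. LPS raised Psme2 by 1.64 in WT and by 2.32 in CTCF-deficient BMDCs, a larger response by 0.68 (adjusted p = 0.0030). It raised Psme1 by 1.24 in WT and by 1.55 in CTCF-deficient BMDCs. Psme2 was higher in KOL than in WTL (0.25, adjusted p = 0.044), in groups that overlapped.

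The class II genes serve the other antigen presentation pathway of these cells. Of 9 tested, 0 were higher and 5 lower in KO against WT, with H2-Aa (−1.15) and H2-Eb1 (−1.11) lowest. In KOL against WTL 2 were higher, H2-Ob (1.11) and H2-Oa (1.02), and 4 lower. LPS raised 7 of the 9 in WT, Cd74 (0.80) and H2-Ab1 (0.77) most, and 8 in CTCF-deficient BMDCs, H2-Ob (1.57) and H2-Oa (1.53) most. The difference of the LPS responses passed in the positive direction for 4 of the 9 and in the negative for 0, against 8.70% and 8.75% of all tested genes. It was largest for H2-Ob (1.05, adjusted p = 3.9e-05) and H2-Eb1 (0.85, adjusted p = 0.00042). Of 12 genes linked to cross-presentation, the route by which dendritic cells load exogenous antigen on class I, 6 were higher and 1 lower in KO against WT and 5 were higher and 1 lower in KOL against WTL. They included Rac2 (1.14) and Lnpep (0.94) without LPS and Sec61b (1.21) and Batf3 (0.74) with LPS. LPS raised Xcr1, the chemokine receptor of cross-presenting dendritic cells, in WT (3.25) and in CTCF-deficient BMDCs (3.31). The level of Xcr1 was low, with mean TPM of 0.77 in WT and 5.07 in WTL, and 0.84 in KO and 6.07 in KOL. LPS also raised Lnpep in WT (1.06). It lowered Clec9a, a receptor for dead cells, in both (−0.63 and −1.84). The LPS response differed by −1.20 for Clec9a (adjusted p = 0.0038) and by 1.10 for Rab27a, a vesicle GTPase (adjusted p = 0.00034).

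Within 100 kb of their start sites the members had neighbours that moved either way. Of 11 tested genes around Tap1, which include Psmb9, Psmb8 and Tap2, 3 rose and 3 fell in KO, the risers being members and the fallers H2-DMb1 (−0.98), H2-Ab1 (−0.76) and H2-DMa (−0.48) of class II. Around H2-K1, 1 of 17, H2-K1 itself, rose in KO and 3 fell, among them Daxx (−0.63). Around H2-D1, 4 of 11 rose and 2 fell, the risers being H2-D1, Prrc2a (0.56), Ddx39b (0.38) and Nfkbil1 (0.32), and the fallers Tnf (−1.83) and Lst1 (−0.55). Over all tested genes 22.2% rose and 22.4% fell. The neighbours named here were chosen after their values were seen.

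**Figure D5:**
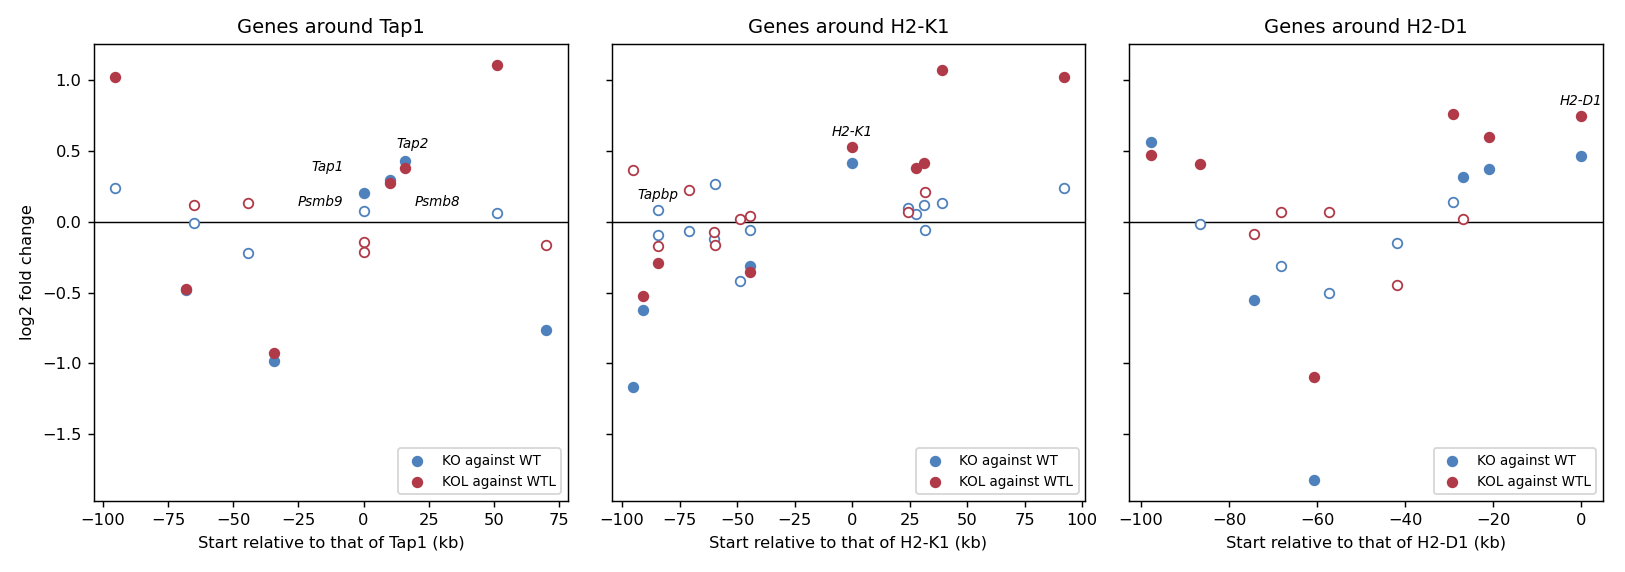
log2 fold change of each tested gene within 100 kb of Tap1, H2-K1 and H2-D1 against its start relative to theirs in kb, for KO against WT and KOL against WTL, with filled points past an adjusted p of 0.05. Members are labelled, and genes on both sides of 0 lie beside them in all 3 panels.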

How the data were processed

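RNA of 12 BMDC cultures was sequenced, and each library was assigned to WT, WTL, KO or KOL from its label. The labels name depletion of ribosomal RNA before a TruSeq kit, while the methods of the study name poly(A) selection with a stranded kit. Per the submitters' processing notes, STAR 2.5.1, RSEM and mm10 were used. For each of 55335 genes the authors deposited an expected count, an estimate that need not be whole and that divides reads shared between similar genes, and a TPM, scaled to a fixed sum and therefore without depth. The authors also deposited RSEM's effective length, the transcript length after allowing for fragment size.

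Expected counts were rounded. Scaling was by TMM in edgeR (version 4.0.16, R 4.3.3), and filterByExpr left 14008 genes. The quasi-likelihood test was applied in 1 fit of all 12 libraries without covariates, as the study's methods state none. Benjamini-Hochberg adjustment covered every gene tested, and a gene was called at an adjusted p under 0.05 with no fold cutoff. No replicates agreed within sampling noise. The fit was run on counts simulated with the same spread for all genes and groups. Spread differed between the groups of these libraries, so the simulation does not cover that. P-values weigh a difference between groups against the spread between cultures, which was estimated over all 4 groups together. The p-values and the shares called depend on this choice. Fits of only the 6 libraries compared called 30.7% of genes higher and 31.3% lower in KO against WT. In KOL against WTL they called 18.0% higher and 16.3% lower.

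The members and gene lists were chosen with earlier results of these data known, and the motifs with the promoter sequences in view. Every member was named in every comparison. For each other list, the 2 called genes with the largest change in a comparison and a mean of at least 100 normalized counts were named, together with Psmb5, Psmb6, Psmb7, Psme1, Psme2, Irf1, Ifnb1, Ciita and Rfx5, and values of some in other comparisons are given. One gene of the rule is not reported here.

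Alternative fits used DESeq2 1.42.0, edgeR on the 6 libraries compared, DESeq2 size factors, upper-quartile scaling, all genes unfiltered, a minimum of 10 counts per library, a block for the replicate number, each library left out, and limma (version 3.58.1) on TPM with a pseudocount of 1 or 0.1, restricted to genes reaching 1 TPM in 3 libraries. The study's fold cutoffs, 2 for both LPS comparisons, 1.3 in unstimulated and 1.5 in stimulated cells, were applied to counts of calls. A limma fit centred on the median gene was chosen after seeing the data. Gene identifiers were matched to GENCODE M21, 54587 with their version and 567 without it, H2-D1 among the latter.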

Additional observations from a re-analysis of the deposited data

Results flagged for a closer look

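The response to LPS differed between CTCF-deficient and WT BMDCs for 2 of the 10 genes by the interaction term of the edgeR fit. For Tap1 the log2 difference was −0.35 (adjusted p = 0.037) and for Nlrc5 it was −0.39 (adjusted p = 0.040), both smaller responses in CTCF-deficient cells. Both calls lie close to the threshold.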

How the results depend on the processing

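Over 850 values of the 10 genes under alternative fits, 787 kept direction and side of the threshold, 55 lost the call, 8 gained one and 0 reversed. All 20 LPS calls passed in every fit, and a fold cutoff of 2 left 7 of 10 in WT and 8 of 10 in CTCF-deficient BMDCs. With limma on log2(TPM + 1) the median of all genes shifted by −0.44 in WTL against WT and −0.38 in KOL against KO, and the log2 rise of B2m in WTL was 0.21 there.

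Members higher in KO against WT numbered 3 with limma on either TPM scale and 4 with any 1 library left out, and 1 was lower with limma on either TPM scale (Nlrc5) or with edgeR on the 6 libraries (Psmb10). In KOL against WTL 3 to 5 were higher and 1 to 4 lower with 1 library left out, and the fold cutoff left 1 higher (H2-D1) and 0 lower. Members with a smaller LPS response in CTCF-deficient BMDCs numbered 1 without a filter, 1 with the replicate block, 1 with the centred limma fit, 0 with limma on either TPM scale, and 0 to 3 with 1 library left out. Where an alternative was not a smaller set of samples or genes, the cause was not tested.

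No pairing by replicate number was seen, as same-numbered libraries correlated between −0.286 and 0.112 after removal of group means. Differently numbered libraries of different groups correlated between −0.269 and 0.326, the highest for WTL replicate 1 with KOL replicate 2. With 3 replicates per group these values cannot decide whether libraries share mice or batches. The replicate block ended the Tap1 calls in KO against WT (adjusted p = 0.057) and in the difference of the LPS responses (adjusted p = 0.060) and changed no other call of these genes. Depth did not limit these genes, which had at least 876 normalized counts in every library.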
